A study of Mus musculus with 16 samples.

Results

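The genes on either side of the immunoglobulin heavy chain locus on chromosome 12 were compared between splenic B cells of mice lacking the 3' regulatory region (3'RR) of that locus and those of wild-type mice. They were taken by position alone: every non-control probe with an mm9 coordinate in the 1428 kb of chromosome 12 that end with the Tmem121 probe nearest to the locus, called the 3'RR side, or in the 3959 kb that begin with the nearest Zfp386 probe, called the variable side. The 19 probes that the array names only by a genomic coordinate were left out. This gave 93 of the 55681 non-control probes of the array, with 72 gene names, 53 probes on the 3'RR side and 40 on the variable side. Of the 93 probes, 59 (50 names) reached a signal well above background on 4 or more of the 16 arrays and were tested, 39 on the 3'RR side and 20 on the variable side.

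RNA of splenic B cells selected with beads against B220, a surface protein of B cells, was hybridised to 16 single-colour Agilent mouse arrays on 2 slides, with 4 arrays of deficient mice and 4 of wild-type mice on each. Per the labels, deficient mice carried a knockout of the IgH allele of 129 origin on a BALBC background and had the strain entry BALBC, and wild-type mice were entered as strain 129. Genotype and strain cannot be told apart in any comparison. The genotypes also occupied different array positions on each slide and exchanged these positions between slides. The design text names 4 mice per genotype for 8 arrays, and the labels do not tie arrays to mice, so a p-value reflects only how these samples vary, which can include technical variation. No label says how the cells of the 2 slides differed, so each slide is given on its own first.

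A group of enhancers beyond the last constant gene of the heavy chain locus makes up the 3'RR. It drives transcription of the rearranged heavy chain gene and of the constant genes before class switching, and it acts over long distances within the locus. The chromosome goes on past it with Tmem121, 4930427A07Rik, Crip1, Crip2 and Mta1. The other end of the locus, with the variable segments, faces Zfp386. Comparing these neighbours between genotypes asks whether differences in expression reached beyond the locus.

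A level on these arrays is the binding of labelled RNA to a probe of 60 bases. For the genes the results turn on, the last 30 bases of the probe are printed, with AATAAA, the signal for RNA cleavage and polyadenylation, in capitals. The first pair shows that the Tmem121 probes share 55 of 60 bases and are not independent measurements; they lie at chr12:114427669-114427728 and 5 bases further on the plus strand of mm9.
Tmem121, A_55_P1998066: attttaaagacttgtgtttacagttttgta
Tmem121, A_55_P2118362: aaagacttgtgtttacagttttgtacccaa
Crip1, A_55_P2163774, chr12:114392029-114392088, plus strand: ctcagtgcctttAATAAAcctgatctttgg
Crip2, A_51_P314397, chr12:114383655-114383714, plus strand: ctgtcAATAAAtagtttggtttgaggattg
Inf2, A_55_P2085295, chr12:113853708-113853767, plus strand: tttaaccAATAAAgagcaaccttgtctgtc
Adssl1, A_55_P2030030, chr12:113879491-113879550, plus strand: tgtcatAATAAAcatagccaggggtcactg
The probes of Crip1, Crip2, Inf2 and Adssl1 held the signal in the stretch shown.

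Several flanking probes carry no gene symbol, so their sequence is the whole of their identity and is printed in full. The set holds the 3 brightest flanking probes without a symbol and the 2 whose difference between genotypes differed between slides.
A_55_P2151907, chr12:114410858-114410917, minus strand: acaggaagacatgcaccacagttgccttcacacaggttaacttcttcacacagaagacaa
A_55_P2129187, chr12:121115511-121115570, plus strand: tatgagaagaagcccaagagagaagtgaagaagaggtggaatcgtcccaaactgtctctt
A_55_P2077114, chr12:117402069-117402128, minus strand: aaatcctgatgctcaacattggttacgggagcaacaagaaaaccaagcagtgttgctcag
A_55_P2069550, chr12:117744900-117744959, minus strand: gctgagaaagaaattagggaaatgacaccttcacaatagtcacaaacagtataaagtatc
NAP068456-1, chr12:113169165-113169224, minus strand: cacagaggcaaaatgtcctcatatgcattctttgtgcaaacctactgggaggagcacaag
An alignment of all 93 probes with every other non-control probe on the array found 1 flanking probe with at least 50 identical bases in a probe of another gene: a Zfp386 probe matched a probe of Zfp72, a zinc finger gene on chromosome 13, at 51 bases. The whole genome was not searched.

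Few flanking genes were lower in deficient cells, unlike the probes of the locus between them. On slide 1, 14 of the 59 flanking probes differed between genotypes at an adjusted p under 0.05, which is 23.7%, against 23.3% of all 32881 probes tested on the array. On slide 2, 4 of 59 passed, which is 6.78%, against 7.46% of all probes. Both shares lay near the background. In the locus itself, 98 of 117 tested probes were lower in deficient cells on slide 1 and 103 were lower on slide 2, with median differences of -1.62 and -2.54 on the log2 scale. These tests came from limma with Benjamini-Hochberg adjustment over all 32881 probes, and differences are deficient minus wild type in log2 of the processed signal relative to the array's 75th percentile.

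The signs differed from slide to slide. On slide 1, 11 flanking probes were higher in deficient cells, against 9.18% of all probes, and 3 were lower, against 14.1% of all probes. On slide 2, 1 was higher, against 3.65%, and 3 were lower, against 3.82%. With the authors' value table, all 8 flanking calls of slide 1 were higher, and 53.7% of all calls were higher, against 39.4% in the fit given here. With arrays scaled by their median, slide 2 had 2 higher and 1 lower flanking calls, and 65.4% of all calls were higher, against 48.9%.

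The differences of the flanking probes were small. The median absolute difference was 0.19 on slide 1, against 0.26 for all probes, and 0.12 on slide 2, against 0.17 for all probes. A measured difference of at least 1 was reached by 2 of 59 flanking probes on slide 1, which is 3.39%, against 7.69% of all probes, and by 0 on slide 2, against 4.91%. The 2 were probes of Zbtb42 and A_55_P2069550. A_55_P2069550 was dim on all wild-type arrays of slide 1, so its difference there is known only to be at least 0.89. The rest of chromosome 12, with 1168 tested probes, had 21.2% past the threshold on slide 1 and 4.54% on slide 2.

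**Figure D1:**
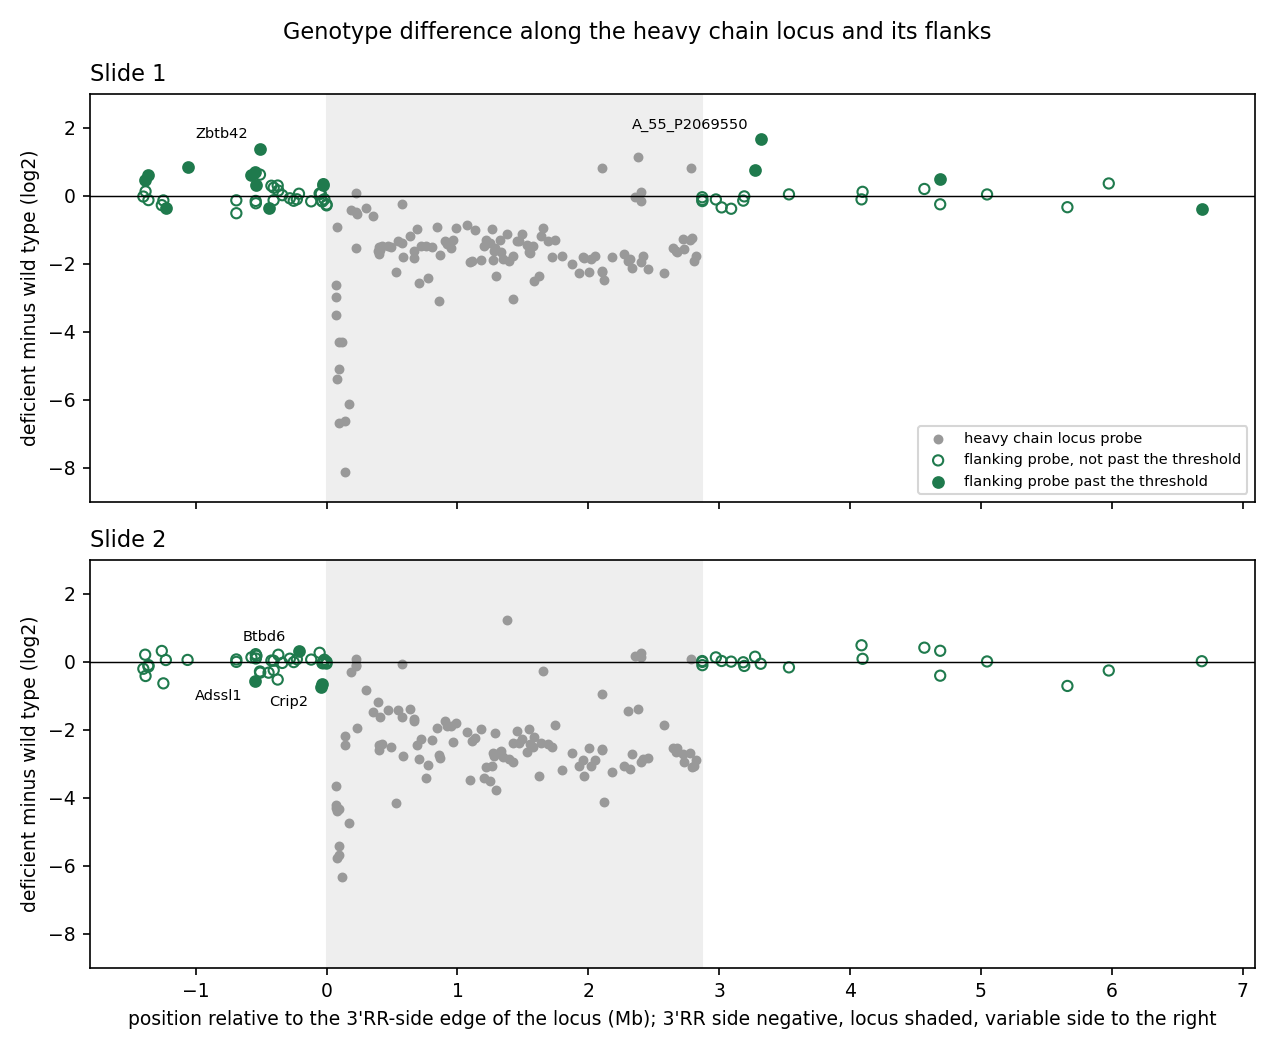
Difference between 3'RR-deficient and wild-type cells (log2, y axis) of each tested probe against its position relative to the 3'RR-side edge of the locus (Mb, x axis), for slide 1 above and slide 2 below. Grey points in the shaded stretch are the 117 probes of the locus, and green points are the 59 flanking probes, filled where the adjusted p was under 0.05; the flanking probes lie between -0.76 and 1.66, the highest being A_55_P2069550, dim on all wild-type arrays of slide 1, while the locus medians are -1.62 and -2.54.

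At each end of the locus, the genotype difference changed between the nearest probes inside and outside the edge. On the 3'RR side, the tested probe nearest to the edge from within lay 69.2 kb inside it, is annotated as a heavy chain transcript, and was lower in deficient cells by -2.62 on slide 1 (SE 0.44, adjusted p = 0.00114) and by -4.31 on slide 2 (adjusted p = 2.23e-05). Tmem121, which sets the other side of that edge, differed by -0.29 on slide 1 (SE 0.12, adjusted p = 0.0871) and by -0.05 on slide 2 (SE 0.12, adjusted p = 0.854). Further out, Crip1 and Crip2 were lower on slide 2, by -0.64 and -0.76, and passed the threshold there. At the variable end, a probe of heavy chain variable segment 1-85 lay 59.6 kb inside the edge and was lower by -1.91 on slide 1 (SE 0.36, adjusted p = 0.00228) and by -3.06 on slide 2 (SE 0.36, adjusted p = 8.62e-05). NAP059589-1, without a symbol and 50.2 kb inside, was lower by -1.77 and -2.89 on slides 1 and 2. TC1586156, 88.9 kb inside, was not lower and passed on neither slide (0.81 and 0.07). The 3 Zfp386 probes just outside differed by -0.16 to -0.05 on slide 1 and by -0.10 to 0.02 on slide 2, and none passed the threshold.

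**Figure D2:**
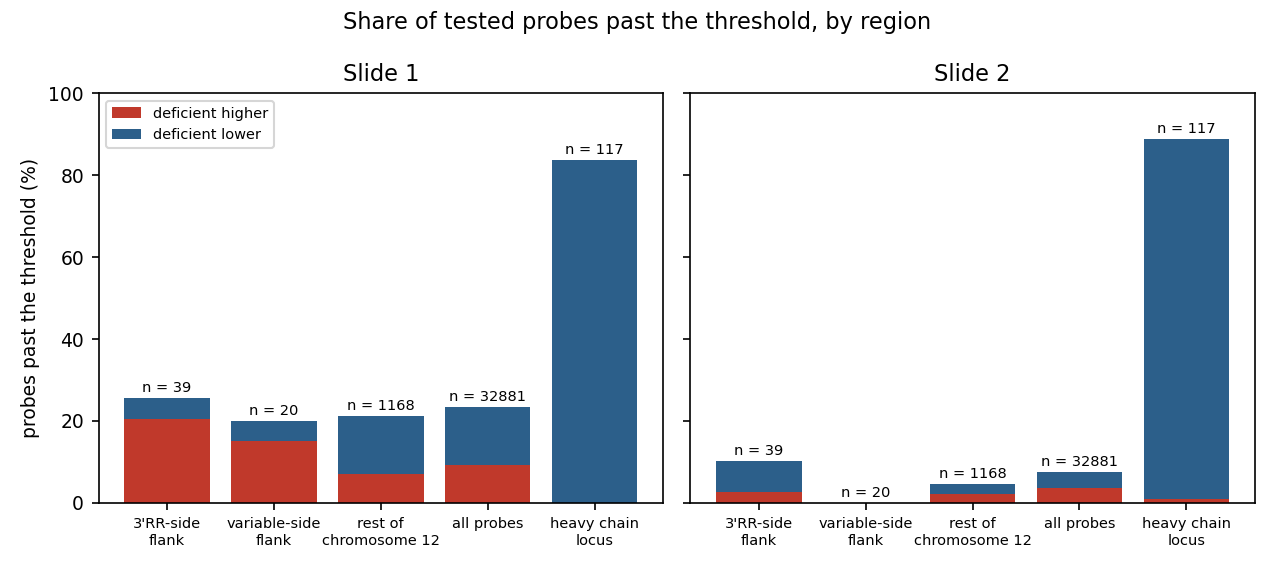
Share of tested probes past the adjusted p threshold of 0.05 (%, y axis) in the 2 flanks, the rest of chromosome 12, all probes and the heavy chain locus, for slide 1 and slide 2, with the deficient-higher part in red and the deficient-lower part in blue. The flanks stand at 25.6% and 20% on slide 1 and at 10.3% and 0% on slide 2, beside 83.8% and 88.9% for the locus.

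Crip1 and Crip2, which lie beyond Tmem121 and 4930427A07Rik, encode small proteins with LIM domains, a zinc-binding fold that mediates protein contacts. Both were lower in deficient cells on slide 2 and neither passed the threshold on slide 1. The slide 2 levels of Crip1 were 2.88, 2.52, 2.40 and 2.90 in deficient cells, against 3.41, 2.98, 3.12 and 3.74 in wild-type cells. All 4 deficient arrays lay below the 4 wild-type arrays, and the difference was -0.64 (SE 0.16, adjusted p = 0.0251), a 1.56-fold lower level in deficient cells. On slide 1 the levels were 7.35, 7.37, 7.32 and 7.43 in deficient cells, against 7.39, 7.73, 7.62 and 7.35 in wild-type cells. These ranges overlapped, with a difference of -0.16 (SE 0.16, adjusted p = 0.509). Of all tested flanking probes, 22% on slide 1 and 23.7% on slide 2 had no overlap between genotypes, in either direction. Over all probes of the array these shares were 21.6% and 22.8%.

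Crip2, 44.0 kb from the edge, stood on slide 2 at 0.02, -0.46, -0.10 and -0.17 in deficient cells, against 0.69, 0.38, 0.52 and 0.72 in wild-type cells. The 2 genotypes did not overlap, and the difference was -0.76 (SE 0.19, adjusted p = 0.0277), a 1.69-fold lower level in deficient cells. On slide 1 its levels were 2.87, 2.27, 2.90 and 2.68 in deficient cells, against 2.64, 2.10, 3.09 and 2.69 in wild-type cells, where the ranges overlapped (difference 0.05, SE 0.19, adjusted p = 0.866). Whether the difference itself differed between slides did not pass the threshold for either gene, with adjusted p = 0.165 for Crip1 and 0.0612 for Crip2.

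Each of these 2 slide 2 calls depended on single arrays. Without array 2 of the deficient cells the adjusted p was 0.0750 for Crip1 and 0.0857 for Crip2, and without array 1 of the wild-type cells it was 0.0774 and 0.0824. Over the arrays left out in turn, the adjusted p also passed 0.05 for Crip1 without deficient array 3 (0.0764) or wild-type array 5 (0.0620), and for Crip2 without deficient array 3 (0.0523) or 4 (0.0585), or wild-type array 3 (0.0587) or 5 (0.0705). The difference kept its sign in every one of these fits, from -0.61 to -0.50 for Crip1 and from -0.78 to -0.66 for Crip2. The slide 2 call of Crip2 was also lost with arrays scaled by their median and with no filter on dim probes. That of Crip1 was also lost with each slide fitted alone and with only arrays 1, 2 and 3 of each group. On the same slide, a list of 6 plasma cell genes had 3 members lower in deficient cells, against 3.82% of all probes. None was higher, against 3.65%, and none of the list was dim on all arrays. The median difference of the list was -1.22. Its summed level was 153 to 202 in deficient cells, against 207 to 280 in wild-type cells. A list of 8 T cell genes had 3 members higher on slide 2, against 3.65% of all probes. Its summed level was 20.2 to 21.7 in deficient cells and 14.2 to 17.9 in wild-type cells. Cd3g was the only member dim on every array of that slide. Of 4 tested erythroid genes, 2 were higher on slide 2, against 3.65% of all probes. The summed level of that list was 1.93 to 9.84 in deficient cells and 0.137 to 0.171 in wild-type cells. The part of these lists in the differences of Crip1 and Crip2 was not tested. The B cell genes fixed as markers were all measured, with 10 of 10 tested and none dim on all arrays of a slide. Of these, 3 were lower in deficient cells on slide 1, against 14.1% of all probes, and 2 higher on slide 2, against 3.65%. On slide 1 the plasma cell list had 2 members higher, against 9.18% of all probes, and 1 lower, against 14.1%. Its summed level there was 241 to 481 in deficient cells and 147 to 241 in wild-type cells. Of 5 neutrophil genes, 1 was higher on slide 1, against 9.18% of all probes, and the median difference over the list was 1.52. Its summed level was 9.07 to 145 in deficient cells and 3.36 to 30.7 in wild-type cells. Of the 8 T cell genes, 1 was lower on slide 1, against 14.1% of all probes. The part of these lists in the slide 1 differences was not tested. In bulk samples, fewer cells of a type and less RNA per cell cannot be told apart.

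Tmem121 encodes a membrane protein and is the flanking gene nearest to the 3'RR. Its levels on slide 1 were 2.38, 2.44, 2.50 and 2.39 in deficient cells, against 2.47, 2.98, 2.86 and 2.55 in wild-type cells. The ranges overlapped. The second probe, which shares most of its bases with the first, differed by -0.26 (SE 0.13, adjusted p = 0.161). Without array 2 of the wild-type cells, the lowest of that group, the first probe's difference was -0.37 and passed the threshold (adjusted p = 0.0364). On slide 2 the levels were -3.15, -2.90, -2.90 and -3.28 in deficient cells, against -3.0, -3.09, -2.95 and -2.96 in wild-type cells, which overlap.

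4930427A07Rik, now Tedc1, is named for a complex with the epsilon and delta tubulins and lay 24.1 kb from the edge. On slide 1 its levels were 2.17, 2.31, 2.30 and 2.26 in deficient cells, against 1.90, 2.02, 2.12 and 1.75 in wild-type cells. The deficient arrays were all higher, with a difference of 0.31 (SE 0.09, adjusted p = 0.0271). The dimmer probe of the gene differed by 0.34 and did not pass (SE 0.13, adjusted p = 0.0845). On slide 2 its levels were 2.05, 2.03, 2.14 and 2.13 in deficient cells, against 2.21, 2.17, 2.23 and 1.91 in wild-type cells, which overlap (difference -0.04, adjusted p = 0.851). The slide 1 call was lost without deficient array 10 (adjusted p = 0.0627) or 11 (0.0539), or wild-type array 2 (0.0554) or 8 (0.0782). It held in 17 of 25 alternative settings and was also lost with each slide fitted alone (adjusted p = 0.102).

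Mta1, a subunit of the NuRD chromatin remodelling and deacetylase complex, lay 53.1 kb from the edge and passed the threshold on neither slide. Its levels on slide 2 were 1.26, 1.16, 1.13 and 1.36 in deficient cells, against 0.98, 1.04, 1.10 and 0.74 in wild-type cells. The deficient arrays lay above the wild-type arrays by 0.26 on average (SE 0.09, adjusted p = 0.102). On slide 1 its levels ran from 0.42 to 0.66 in deficient cells and from 0.37 to 0.55 in wild-type cells, with a difference of 0.06 (SE 0.09, adjusted p = 0.673). A bright probe without a symbol between Tmem121 and these genes, A_55_P2151907, with a mean level of 7.94 over all arrays, differed by -0.11 on slide 1 and 0.06 on slide 2 and passed on neither.

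On the variable side, none of the 4 genes tested among the 5 nearest passed the threshold on either slide. Zfp386, a zinc finger gene, had levels of 1.63, 1.69, 1.82 and 1.71 in deficient cells and 2.02, 1.76, 1.92 and 1.80 in wild-type cells on slide 1 (brightest probe, difference -0.16, SE 0.09, adjusted p = 0.226). On slide 2 it had 2.16, 2.33, 2.48 and 2.08 in deficient cells and 2.32, 2.45, 2.42 and 2.27 in wild-type cells (difference -0.10, SE 0.09, adjusted p = 0.608). The genotypes overlapped on both slides. Vipr2, the receptor of vasoactive intestinal peptide, was well above background on only 1 of 16 arrays, a wild-type array of slide 2, and was not tested.

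Wdr60, a subunit of the dynein-2 motor of cilia, differed by -0.35 on slide 1 (SE 0.17, adjusted p = 0.144) and by 0.02 on slide 2 (SE 0.17, adjusted p = 0.968). Its slide 1 levels were -1.55, -1.30, -1.06 and -1.04 in deficient cells, against -0.80, -1.39, -0.41 and -0.96 in wild-type cells. Without wild-type array 5, which stood among the deficient arrays, the difference was -0.52 and passed (adjusted p = 0.0216). Esyt2, a protein that tethers the endoplasmic reticulum to the plasma membrane, differed by -0.15 on slide 1 (SE 0.10) and by -0.02 on slide 2 (SE 0.10). The RIKEN transcript 2310058N22Rik differed by -0.02 on slide 1 (SE 0.17) and by -0.12 on slide 2 (SE 0.17), and the ranges of the genotypes overlapped on both slides for both genes.

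**Figure D3:**
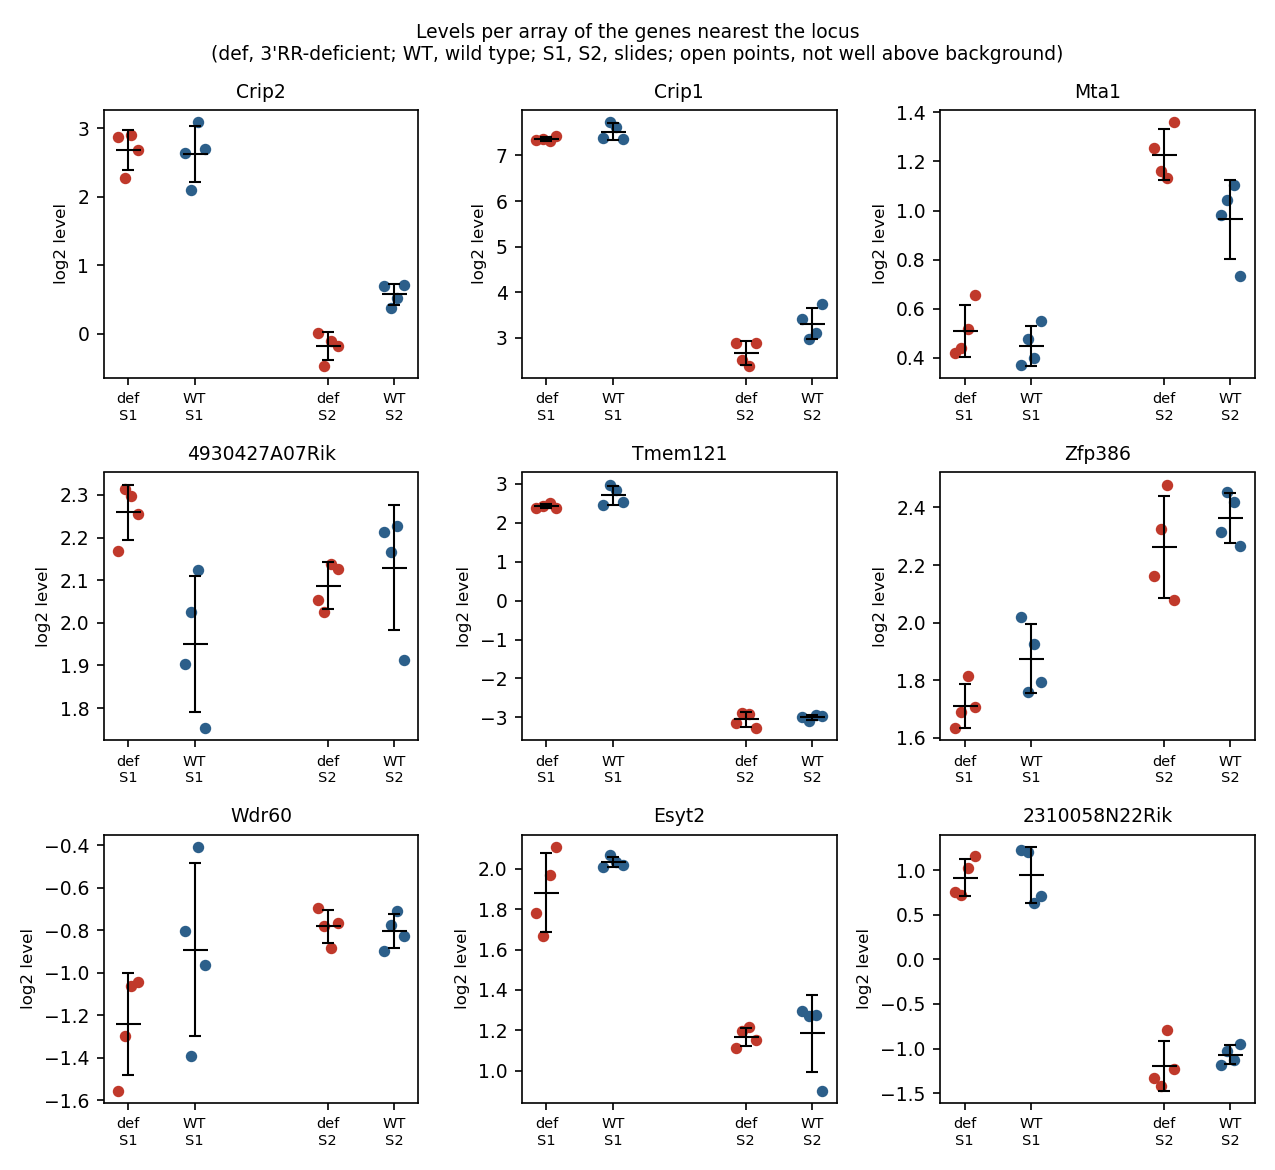
Level on every array (log2 of processed signal relative to the array's 75th percentile, y axis) of the 9 measured genes nearest the locus, with deficient arrays in red left of wild-type arrays in blue for slide 1 (S1) and slide 2 (S2); bars are the mean and SD of 4 arrays. Crip1 and Crip2 separate the genotypes on slide 2 and overlap on slide 1, and Tmem121 stands near 2.4 to 2.7 on slide 1 and near -3.0 on slide 2 in both genotypes.

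The promoters of the genes at the 2 edges, Tmem121 and Zfp386, are shown with those of Crip1 and Crip2, which passed the threshold on slide 2. The 250 bases before the annotated start were taken from RefSeq (GRCm38.p6) and are given in the direction of the gene, with the GC box, GGGCGG or its reverse complement CCGCCC, in capitals.
Tmem121, chr12:113185653-113185902: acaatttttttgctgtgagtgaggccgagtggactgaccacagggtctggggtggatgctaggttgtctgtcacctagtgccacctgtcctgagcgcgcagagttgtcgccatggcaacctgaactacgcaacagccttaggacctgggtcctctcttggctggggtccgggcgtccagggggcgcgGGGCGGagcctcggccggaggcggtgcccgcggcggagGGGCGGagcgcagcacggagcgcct
Crip1, chr12:113151762-113152011: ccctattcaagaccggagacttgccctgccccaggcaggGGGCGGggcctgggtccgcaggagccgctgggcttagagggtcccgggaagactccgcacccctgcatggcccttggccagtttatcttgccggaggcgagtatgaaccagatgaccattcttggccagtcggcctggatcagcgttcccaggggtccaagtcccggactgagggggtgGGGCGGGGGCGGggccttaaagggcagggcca
Crip2, chr12:113139986-113140235: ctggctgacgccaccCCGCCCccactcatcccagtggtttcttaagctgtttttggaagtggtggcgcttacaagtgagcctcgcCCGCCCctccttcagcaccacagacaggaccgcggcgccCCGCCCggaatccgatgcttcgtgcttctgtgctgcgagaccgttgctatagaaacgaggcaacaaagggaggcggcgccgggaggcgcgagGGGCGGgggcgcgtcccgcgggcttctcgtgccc
Zfp386, chr12:116047474-116047723: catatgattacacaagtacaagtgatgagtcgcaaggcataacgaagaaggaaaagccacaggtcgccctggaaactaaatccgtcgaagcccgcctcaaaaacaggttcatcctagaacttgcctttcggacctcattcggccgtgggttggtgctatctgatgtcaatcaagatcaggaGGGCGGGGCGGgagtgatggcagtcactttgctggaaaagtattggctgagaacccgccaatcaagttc
All 4 windows lie on the plus strand, and that of Crip2 is the upstream one of its 2 annotated starts. They hold 2 GC boxes for Tmem121, 3 for Crip1, 4 for Crip2 and 2 for Zfp386, where the 2 overlap.

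Of the flanking genes, 48 had 57 such windows in the RefSeq table. The GC box was found in 40 of the 57 windows, which is 70.2%, against 32.7% of the 32851 windows of all genes. The octamer ATGCAAAT, which B cell octamer factors bind in immunoglobulin promoters, was searched on both strands and is in none of the 57 windows, against 1.6% of all windows. The consensus kappa-B motif, also searched on both strands, is in none of the 57, against 0.14% of all windows. None of the 3 motifs contains another.

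Among the flanking genes of cell division, DNA repair and chromatin, 4 of 16 tested probes were higher in deficient cells on slide 1 and none was lower, against 9.18% and 14.1% of all probes. On slide 2 none passed the threshold, against 7.46%, and 3 of 16 had an unadjusted limma p under 0.05, against 21.3%. The median over all 16 was -0.01 on slide 1 and 0.05 on slide 2. Cdca7l, a nuclear protein related to the cell cycle gene Cdca7, had slide 1 levels of -2.28, -2.16, -2.34 and -1.98 in deficient cells, against -2.91, -2.76, -2.62 and -2.44 in wild-type cells. Its slide 2 levels were -1.61, -1.60, -1.62 and -1.41 in deficient cells, against -1.90, -1.76, -1.68 and -2.20 in wild-type cells. The deficient arrays were all higher on each slide, with differences of 0.49 on slide 1 (SE 0.13, adjusted p = 0.0143) and 0.32 on slide 2 (SE 0.13, adjusted p = 0.155). The slide 1 call held in 22 of 25 alternative settings and was lost, among others, with each slide fitted alone. Over both slides the difference was 0.41 (SE 0.09, adjusted p = 0.00746), and this call held in all 25 alternative settings run.

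Ncapg2, a subunit of the condensin II complex that compacts chromosomes in mitosis, stood at 0.75, 0.90, 0.37 and 1.03 on slide 1 in deficient cells, against -0.43, 0.10, 0.45 and -0.10 in wild-type cells. The highest wild-type array lay above the lowest deficient array, and the difference was 0.76 (SE 0.17, adjusted p = 0.00763). That slide 1 call of Ncapg2 was lost with each slide fitted alone (adjusted p = 0.0686). On slide 2 its levels were 3.53, 3.60, 3.73 and 3.46 in deficient cells, against 3.43, 3.52, 3.57 and 3.20 in wild-type cells, a difference of 0.15 (SE 0.17, adjusted p = 0.703) with overlapping ranges. Xrcc3, a DNA repair gene, differed by 0.46 on slide 1 (SE 0.15, adjusted p = 0.0362) and by 0.21 on slide 2 (adjusted p = 0.475). Its slide 1 call held in 15 of 25 alternative settings and was lost, among others, without each of the 4 wild-type arrays of that slide in turn. Among the members that did not pass on either slide, Brf1, a subunit of the RNA polymerase III factor TFIIIB, differed by -0.11 and 0.07 on slides 1 and 2, and Sp4, a transcription factor that binds GC boxes, by 0.03 and 0.01.

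Of the flanking genes of signalling, 1 of 9 tested probes passed on slide 1, against 23.3% of all probes, and 1 on slide 2, against 7.46%, both higher in deficient cells. Akt1, the kinase downstream of phosphoinositide 3-kinase, was higher on slide 1 by 0.30 (SE 0.10, adjusted p = 0.0438), with all 4 deficient arrays above the wild-type arrays, and differed by 0.17 on slide 2 (SE 0.10, adjusted p = 0.356). That call held in 11 of 25 alternative settings. Btbd6, a BTB domain protein 211 kb from the edge, was higher on slide 2 by 0.31 (SE 0.07, adjusted p = 0.0204), with no overlap between genotypes, and differed by 0.05 on slide 1 (adjusted p = 0.633). Its call held in 20 of 27 alternative settings. Gpr132, a lysolipid- and acid-sensing receptor of immune cells and one of the brighter flanking genes, differed by 0.01 on slide 1 and by -0.04 on slide 2 (SE 0.10 each). The Notch ligand Jag2 was well above background on 2 of 4 deficient arrays and on none of the wild-type arrays of slide 1, so no difference is given there, and it differed by 0.09 on slide 2 (SE 0.31).

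In the group of cytoskeletal, transport and membrane genes, 2 of 13 tested probes were higher on slide 1, against 9.18% of all probes, and 1 was lower, against 14.1%. On slide 2 none was higher, and 2 were lower, those of Crip1 and Crip2, against 3.82%. Inf2, a formin that assembles and severs actin filaments, had slide 1 levels of 3.87, 4.01, 3.78 and 3.69 in deficient cells, against 3.26, 3.24, 3.16 and 3.28 in wild-type cells. The groups did not overlap, and the difference was 0.60 (SE 0.09, adjusted p = 0.000393). Zfyve21, a protein with a FYVE domain that binds phosphoinositides, was higher by 0.60 on slide 1 (SE 0.17, adjusted p = 0.0209) with overlapping ranges. Its call held in 20 of 25 alternative settings and was lost without deficient array 9 or 10 or wild-type array 2, with the authors' value table, and with each slide fitted alone (adjusted p = 0.122). AW555464, now Cep170b, was lower in deficient cells by -0.37 on slide 1 (SE 0.13, adjusted p = 0.0484) and by -0.32 on slide 2 (SE 0.13, adjusted p = 0.154). Over both slides Cep170b differed by -0.35 (adjusted p = 0.0176), which held in all 25 alternative settings, while its slide 1 call alone held in 7 of 25.

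The group of metabolic genes held 2 tested members, and both were higher on slide 1, against 9.18% of all probes. Aspg, an asparaginase and lysophospholipase, had slide 1 levels of -3.96, -3.56, -3.26 and -3.72 in deficient cells, against -4.63, -4.66, -4.16 and -4.44 in wild-type cells, of which 2 were well above background. All deficient arrays were higher, by 0.85 on average (SE 0.19, adjusted p = 0.00611), and this call held in all 25 alternative settings. On slide 2 Aspg stood at -2.62, -3.07, -2.97 and -2.84 in deficient cells, against -2.88, -3.26, -3.13 and -2.45 in wild-type cells, which overlap (difference 0.05, SE 0.19, adjusted p = 0.918).

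Adssl1, the muscle-type adenylosuccinate synthetase of purine synthesis, was the one flanking gene past the threshold on both slides, and its sign turned. Its slide 1 levels were 3.09, 3.46, 2.70 and 2.80 in deficient cells, against 2.48, 2.24, 2.40 and 2.16 in wild-type cells, a difference of 0.69 (SE 0.15, adjusted p = 0.00473). On slide 2 the levels were 1.21, 1.43, 1.57 and 1.54 in deficient cells, against 2.02, 2.10, 1.83 and 2.06 in wild-type cells, a difference of -0.57 (SE 0.15, adjusted p = 0.0304). The genotypes did not overlap on either slide, and the difference between slides was -1.26 (SE 0.21, adjusted p = 0.00283). The slide 2 call was lost without deficient array 1 (adjusted p = 0.0931) or 2 (0.0703), or wild-type array 1 (0.0785), 2 (0.0817) or 5 (0.0698). It was also lost with arrays scaled by their median and with no filter on dim probes. With only arrays 1, 2 and 3 of each group and a block for their numbers, its adjusted p was 0.104. The slide 1 call was lost with each slide fitted alone (adjusted p = 0.0511). The test between slides held in all 22 alternative settings.

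The genotype difference itself differed between slides for 6 of the 59 flanking probes, which is 10.2%, against 13.9% of all probes. In 2 of the 6 the slide 2 difference was the higher, against 8.72% of all probes, and in 4 it was the lower, against 5.14%. Zbtb42, a zinc finger protein of the BTB family, stood on slide 1 at -2.32, -2.28, -2.53 and -2.74 in deficient cells, against -4.0, -3.40, -3.93 and -4.07 in wild-type cells. On slide 2 it stood at -4.05, -4.12, -4.38 and -4.03 in deficient cells, against -3.70, -4.0, -3.88 and -3.72 in wild-type cells. The slide 1 difference of 1.38 (SE 0.15, adjusted p = 4.58e-05), a 2.6-fold higher level in deficient cells, faced a slide 2 difference of -0.32 (SE 0.15, adjusted p = 0.23), and the test between slides gave an adjusted p of 0.000444. The dimmer Zbtb42 probe, 1.8 kb further from the locus, was well above background on 1 of 4 deficient arrays and on none of the wild-type arrays of slide 1, so no slide 1 difference is given for it, and on slide 2 it differed by -0.29 (SE 0.31).

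A_55_P2069550, the probe without a symbol printed above, was well above background on 3 of 4 deficient arrays and on no wild-type array of slide 1, so its level there was at least 1.85-fold higher in deficient cells (adjusted p = 0.00114). Its measured slide 1 levels were -3.09, -3.78, -4.14 and -4.20 in deficient cells, against -4.70, -5.31, -6.16 and -5.70 in wild-type cells. On slide 2 they were -4.44, -4.28, -4.37 and -4.44 in deficient cells, against -4.43, -4.29, -4.52 and -4.04 in wild-type cells, and there the ranges overlapped (difference -0.06, SE 0.28, adjusted p = 0.94). The measured difference between slides was -1.72 (SE 0.39, adjusted p = 0.0131), and with dim arrays at their floor it was -0.95 (adjusted p = 0.0488).

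The remaining slide-dependent probes had smaller differences. Inf2 stood on slide 2 at 6.51, 6.55, 6.63 and 6.29 in deficient cells, against 6.33, 6.35, 6.44 and 6.35 in wild-type cells, so that its slide 2 difference of 0.13 (SE 0.09, adjusted p = 0.442) was below that of slide 1 by -0.48 (SE 0.12, adjusted p = 0.022). 2010107E04Rik, now Atp5mpl, a small subunit of the mitochondrial ATP synthase, stood on slide 1 at 5.01, 5.29, 5.12 and 5.11 in deficient cells, against 5.39, 5.49, 5.53 and 5.56 in wild-type cells, a difference of -0.36 (SE 0.09, adjusted p = 0.00875) with no overlap. The slide 1 call was lost with each slide fitted alone and with the authors' value table (adjusted p = 0.0639 with that table). On slide 2 Atp5mpl ran from 6.00 to 6.18 in deficient cells and from 5.90 to 6.20 in wild-type cells, with a difference of 0.05, and the test between slides (0.41, SE 0.12, adjusted p = 0.0377) held in 8 of 22 alternative settings. It was lost, among others, without any of the 4 wild-type arrays of slide 2 except array 5. NAP068456-1 differed by -0.28 on slide 1 (SE 0.11, adjusted p = 0.0842) and by 0.32 on slide 2 (SE 0.11, adjusted p = 0.11), where it stood at 4.64, 4.54, 4.56 and 4.52 in deficient cells, against 4.37, 4.27, 4.28 and 4.06 in wild-type cells. Neither slide passed by itself, and the difference between them did (0.60, SE 0.16, adjusted p = 0.0253).

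**Figure D4:**
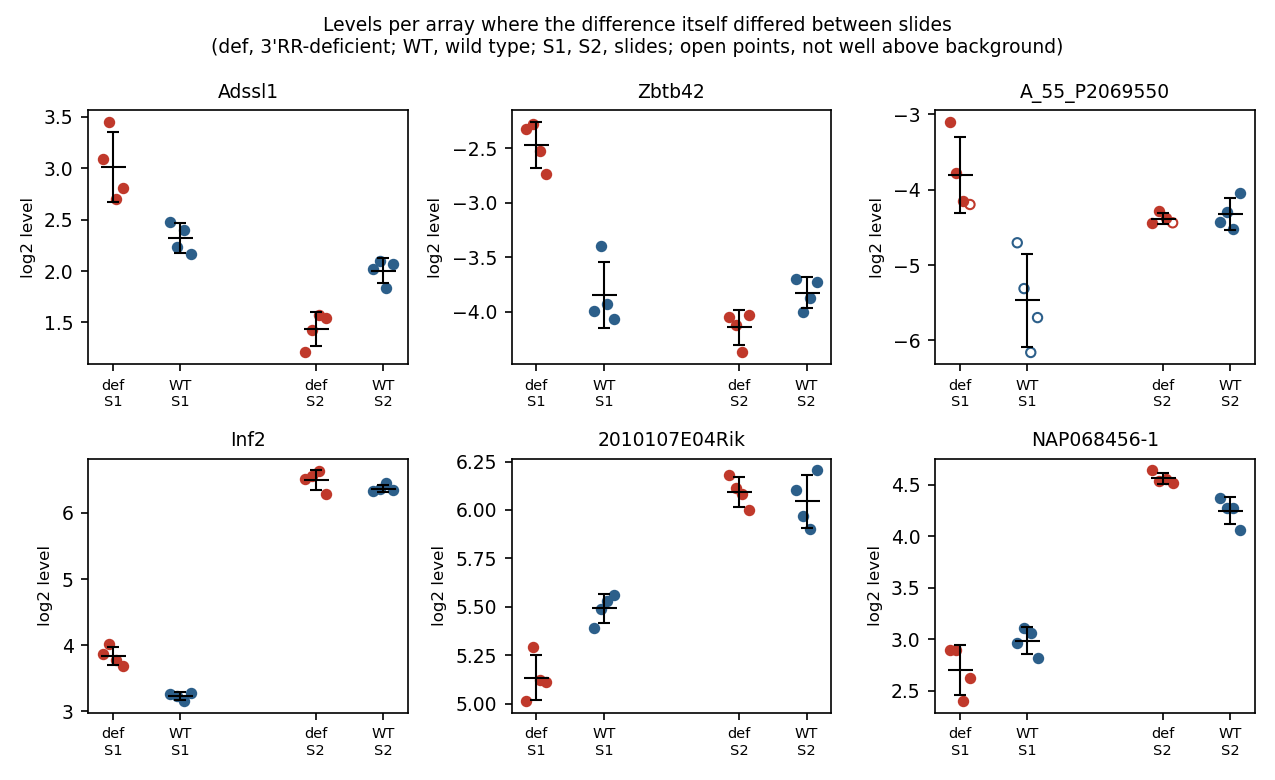
Level on every array (log2 of processed signal relative to the array's 75th percentile, y axis) of the 6 flanking probes whose genotype difference differed between slides, with deficient arrays in red left of wild-type arrays in blue; bars are the mean and SD of 4 arrays, and open points were not well above background. Adssl1 is higher in deficient cells on slide 1 and lower on slide 2, and Zbtb42 separates by 1.38 on slide 1 and by -0.32 on slide 2.

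Across the 59 flanking probes, the differences of the 2 slides had a Pearson correlation of -0.03 and a Spearman correlation of 0.05, against 0.32 and 0.12 over all 32881 probes, where probes of 1 array are not independent and share its scaling. The sign was the same on both slides for 30 of 59 flanking probes, which is 50.8%, against 50% of all probes. No flanking probe passed the threshold on both slides with 1 sign, against 2.47% of all probes. At an unadjusted limma p under 0.05 on each slide, 2 did, Cep170b (lower in deficient cells) and Cdca7l (higher), which is 3.39%, against 6.08% of all probes.

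**Figure D5:**
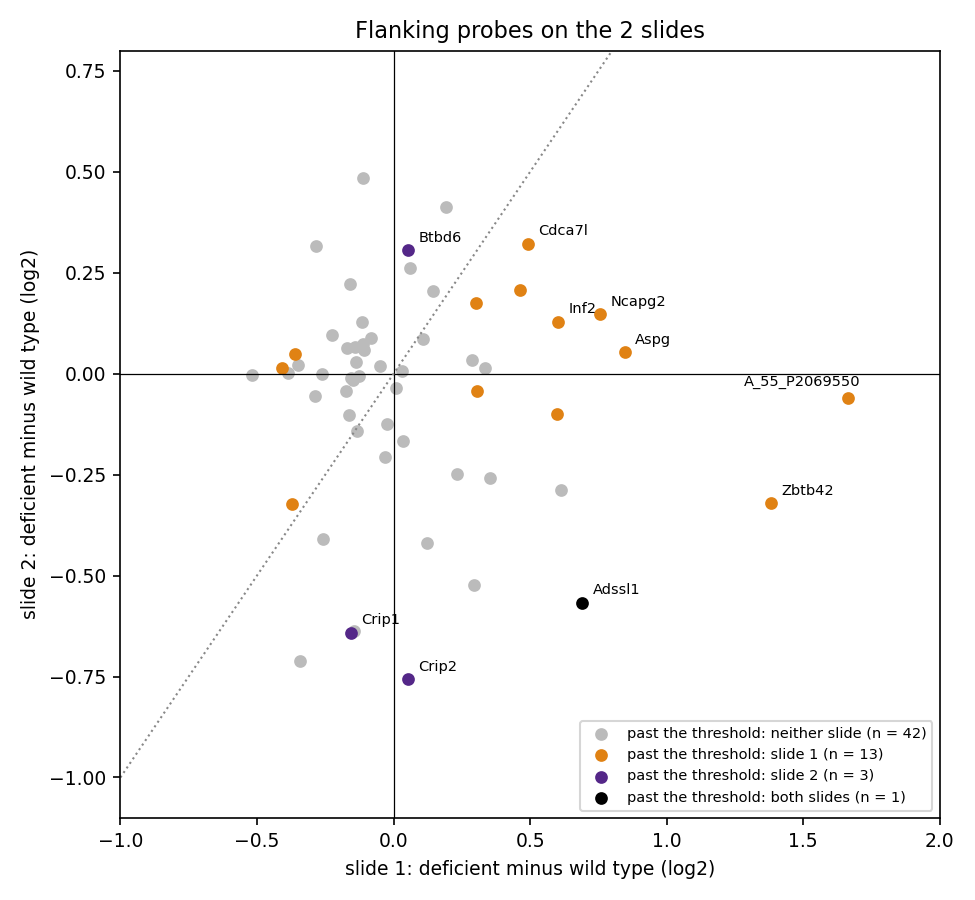
Difference between 3'RR-deficient and wild-type cells on slide 2 (log2, y axis) against that on slide 1 (log2, x axis) for the 59 flanking probes, coloured by the slide on which the adjusted p was under 0.05; the dotted line marks equal differences. The 13 probes past the threshold on slide 1 alone spread along the x axis, the 3 of slide 2 alone stand apart from them, and Adssl1, past the threshold on both, lies at the lower right.

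Over both slides together, 12 of 59 flanking probes passed, which is 20.3%, against 16.8% of all probes, 10 of them higher in deficient cells, against 7.58%, and 2 lower, against 9.22%. Among these 12, the 6 with the largest difference were A_55_P2069550 (0.80), Zbtb42 (0.53), Ncapg2 (0.45), Aspg (0.45), Cdca7l (0.41) and Crip1 (-0.40). The value of A_55_P2069550 rests on wild-type arrays of slide 1 that were all dim, and with dim arrays at their floor it was 0.415 and did not pass (adjusted p = 0.0746). For Crip1 the fit over both slides gave an adjusted p of 0.0268. The count was 6 without wild-type array 1 of slide 2 and 7 without deficient array 1 or 4 of that slide, and with slide as a random block it was 3. The slide 1 count of 14 was 9 without deficient array 10 of that slide. The slide 2 count of 4 was 0 without wild-type array 1, 1 without deficient array 2 or wild-type array 5, and 2 without deficient array 4.

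The calls along the 3'RR side were counted by distance from the edge. When its 39 tested probes were ordered by distance, 1 of the nearest 13, 3 of the middle 13 and 6 of the farthest 13 passed on slide 1, against 23.3% of all probes. On slide 2 these counts were 3, 0 and 1, against 7.46% of all probes, and the calls within 100 kb were those of Crip2 (-0.76) and Crip1 (-0.64). In fixed bins, 1 of 9 tested probes within 100 kb passed on slide 1 and 2 of 9 on slide 2, with median absolute differences of 0.17 and 0.05. Of the 9 probes between 500 kb and 1 Mb, 4 passed on slide 1, all higher in deficient cells, and 1 on slide 2, with median absolute differences of 0.52 and 0.17. Of the 9 probes beyond 1 Mb, 4 passed on slide 1 and none on slide 2. On the variable side, none of the 6 tested probes within 250 kb passed on either slide, and their slide 1 differences lay between -0.39 and -0.05 and their slide 2 differences between -0.10 and 0.13. Between 250 and 500 kb, 2 of 4 passed on slide 1, and beyond 1 Mb, 2 of 9. No probe of the variable side passed on slide 2, where 2 of 20 had an unadjusted limma p under 0.05, against 21.3% of all probes. The Spearman correlation between absolute difference and distance was 0.24 on slide 1 and 0.28 on slide 2 over the 39 probes of the 3'RR side, and 0.24 and 0.43 over the 20 of the variable side, where probes of 1 gene share their position.

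The flanking genes differed far more between slides than between genotypes. The level moved by at least 1 between slides in the same direction in both genotypes for 23 of 59 flanking probes, which is 39%, against 33.2% of all probes, and 3 of the 23 had a group that was dim on all its arrays. Tmem121 averaged -3.06 on slide 2 and 2.43 on slide 1 in deficient cells, a difference of -5.48, and -3.0 on slide 2 and 2.71 on slide 1 in wild-type cells, a difference of -5.71. Crip1 averaged 2.67 on slide 2 and 7.37 on slide 1 in deficient cells, and 3.31 on slide 2 and 7.52 on slide 1 in wild-type cells, a drop of more than 4 in each genotype. Crip2 was lower on slide 2 as well, by -2.86 in deficient and -2.05 in wild-type cells.

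In the other direction, Ncapg2 was higher on slide 2 by 2.82 in deficient and 3.43 in wild-type cells, and Inf2 by 2.66 and 3.13. Slide, scan and whatever set the cells of the slides apart cannot be told apart, and these differences between slides were not tested. They show that the slide 1 and slide 2 comparisons of Tmem121, Crip1 and Crip2 were made at very different measured levels. Tmem121 passed the threshold at neither level.

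The 8 genes with more than 1 tested probe gave a check on the probes. Siva1 had 1 sign over its probes on each slide. Tmem121 did too, but its probes share most of their bases and do not check each other. The probes of Klc1, a light chain of the kinesin motor, and those of Ptprn2 had opposite signs on slide 1. Those of 4930427A07Rik and Zfp386 did so on slide 2, and those of LOC100047183 on both slides. For Zbtb42 on slide 1 and Ptprn2 on slide 2, 1 probe was dim on all arrays of a group, and no sign is compared. None of these disagreements was between 2 probes past the threshold. A_55_P2129187, the bright probe farthest from the locus on the variable side, at 3817 kb, was lower in deficient cells on slide 1 by -0.41 (SE 0.11, adjusted p = 0.0142) and differed by 0.02 on slide 2. Its slide 1 call was lost with each slide fitted alone and with the authors' value table (adjusted p = 0.186 with that table).

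The 34 flanking probes that were not tested comprise 21 that were well above background on no array and 13 that were so on 1 to 3 arrays. On the 3'RR side their names are A_55_P1999043, A530016L24Rik, BC048943, BC131793, ENSMUST00000101010, ENSMUST00000166027, Kif26a, LOC100047183, Tdrd9, Tex22 and Tmem179, and on the variable side A930023M06Rik, A_55_P2012281, A_55_P2012293, A_55_P2013798, A_55_P2140842, Abcb5, D230030E09Rik, D430020J02Rik, Gm10421, Itgb8, Macc1, NAP024715-001, Ptprn2, Sp8, Tmem196 and Vipr2. Other probes of A530016L24Rik, LOC100047183, Tmem179, Ptprn2 and Sp8 were tested. No flanking probe was saturated on any array.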

How the data were processed

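The data were the spot intensities of 16 single-colour arrays, extracted with Agilent Feature Extraction 10.7.3.1 and deposited by the authors. Background had been subtracted and a spatial trend removed array by array, with no normalization between arrays and with mm9 coordinates, per the file headers. The log2 table that the authors deposited, with scaling steps not given in the sources used here, served as an alternative within slides. For slide 2, limma is listed without a version in the submitters' processing notes.

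Of 62976 spots, 3671 controls were left out. Signal was taken as log2, reduced by the 75th percentile of its array, and averaged over spots of a probe, spots marked as outliers by the scanner software excluded, and probes with 4 or more of the 16 arrays well above background were kept (32881 probes). One limma 3.58.1 model in R 4.3.3 with a mean for each genotype and slide gave differences within each slide, over both slides and between slides; p-values were Benjamini-Hochberg adjusted over all 32881 probes, with a threshold of 0.05. A probe dim on all arrays of a group has only a bound, set by its own signal or the lowest one well above background, whichever is higher. Scripts were tested on simulated arrays. The 75th percentile was 576 to 851 for slide 1 arrays and 596 to 990 for slide 2 arrays, and 26065 to 34193 probes an array were well above background; the number of arrays limits the precision.

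Probes were aligned with blastn 2.17.0. Symbols and promoters came from RefSeq (GRCm38.p6), where the accessions of 69 of the 93 probes matched. Genes with values on every array are the 5 nearest the locus on each side, those whose difference differed between slides and, among those past the threshold over both slides, the 6 with the largest difference; others appear by role. The members, lists and this rule were chosen with earlier results of these data known.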

Additional observations from a re-analysis of the deposited data

Results flagged for a closer look

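For 6 flanking probes the difference between deficient and wild-type cells itself differed between the 2 slides, by limma's test of slide 2 minus slide 1. The values were -1.72 for A_55_P2069550, -1.70 for Zbtb42, -1.26 for Adssl1, -0.48 for Inf2, 0.41 for 2010107E04Rik and 0.60 for NAP068456-1. That of A_55_P2069550 rests on wild-type arrays of slide 1 that were all dim, and with dim arrays at their floor it was -0.95 (adjusted p = 0.0488). Genotypes exchanged array positions between the 2 slides and the slides' cells may differ, and the part of either in these values was not tested.

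Single arrays stood apart from the other 3 of their group in 2 of the 72 groups of 4 arrays checked among the genes with values on every array, where chance alone gives about 1 in 20. The level of Esyt2 was 0.90 on array 5 of the wild-type cells of slide 2, against 1.27 to 1.29 on the other 3. The level of Cdca7l was -1.41 on array 4 of the deficient cells of slide 2, against -1.62 to -1.60 on the other 3.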

How the results depend on the processing

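The count of flanking probes past the threshold on slide 1, 14 as given, was 8 with the authors' value table and 4 with each slide fitted alone, and ran from 9 to 15 as each array was left out in turn. The slide 2 count, 4 as given, was 1 with no filter on dim probes, 7 with the authors' value table and 14 with array weights, and ran from 0 to 5 with single arrays left out. The count over both slides, 12 as given, was 6 with no filter, 5 with an additive slide term and 3 with a random slide block, and ran from 6 to 12 with single arrays left out. The count of differences that differed between slides, 6 as given, was 12 with normexp and quantile normalization, 3 with no filter and 15 with array weights, and ran from 5 to 9 with single arrays left out. Over all probes, 7668 calls on slide 1 became 3358 with the authors' table and 2821 with each slide fitted alone (6037 to 8318 with single arrays left out), 2454 on slide 2 became 3951 and 3847 (1439 to 2722), and 5525 over both slides became 3089 with the random block (4221 to 5600). The cause of these moves was not tested. With single arrays left out, the median difference ran from -0.04 to 0.07 on the 3'RR side and from -0.13 to 0 on the variable side on slide 1, and from -0.02 to 0.02 and -0.03 to 0.02 on slide 2. No call on a flanking probe changed sign under any alternative run. On slide 1, A_55_P2069550, Aspg, Zbtb42 and Inf2 held in all 25 alternatives, and no slide 2 call held in all 27. On slide 2, deficient and wild-type arrays share the numbers 1, 2 and 3. The correlations of same-numbered deviations were 0.01, 0.10 and 0.06, and those of differently numbered ones ran from -0.16 to 0.07. These values do not decide whether the numbers pair the samples. With these 3 arrays a group, the slide 2 count was 2 with the replicate block and 3 without it, a setting chosen after seeing the data. Dim probes limit what can be said of the 34 flanking probes that were not tested.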
